A study of Homo sapiens with 31 samples.

Results

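HLA class I presentation genes were followed in NALM-6, an established B-cell precursor ALL line, by the UMI counts of 7 genes out of 30667 in the deposited table. The genes were the heavy chains HLA-B, HLA-C and HLA-E, the light chain B2M, the peptide transporter subunits TAP1 and TAP2, and tapasin (TAPBP). They are the genes whose Ensembl identifier maps to these symbols. The rule uses no measured value, although the set was proposed with earlier results of these data known. All 7 were present, and all 7 passed the filter on low counts in every fit.

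The 31 samples came from NALM-6 cells transduced with 1 of 4 lentiviral constructs and taken 4, 10 or 13 days later. EF1a/sh-CTRL and SFFV/sh-CTRL carry a hairpin against eGFP behind the EF1a or the SFFV promoter, and EF1a/sh-XIAP and SFFV/sh-XIAP carry a hairpin against XIAP behind the same promoters. The EF1a/sh-XIAP construct is the study's moderate and SFFV/sh-XIAP its strong XIAP knockdown (KD), so that the KD comparisons ask whether lowering XIAP, an inhibitor of caspases, moves the transcriptome. At day 4 the groups held 3 EF1a/sh-CTRL, 2 EF1a/sh-XIAP, 3 SFFV/sh-CTRL and 2 SFFV/sh-XIAP samples, and at days 10 and 13 together 6, 5, 4 and 6. All cells carried a vector, and 1 hairpin sequence stood for XIAP. Nothing in the labels says whether replicates were separate cultures. Replicate numbers recur from day to day, and whether the same culture was sampled at several days is not said either. The main fits and the permutations treat every library as independent, so that p-values measure the spread between these samples only. On where the cells grew the deposited descriptions differ, since each sample is labelled in vitro while the general design text speaks of mouse bone marrow, and the sample labels were followed.

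Class I molecules show peptides from inside the cell to CD8 T cells. The proteasome cuts the peptides, TAP1 and TAP2 pump them into the endoplasmic reticulum (ER), and tapasin holds an empty heavy chain with B2M beside the transporter until a peptide binds. Their promoters share binding sites for NF-κB, interferon regulatory factors and the factors recruited with NLRC5.

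The shared promoter letters can be seen in the heavy chains HLA-B and HLA-C. RefSeq promoter windows (250 bases before to 50 after the start site, GRCh38.p14) were at hand for 6 of the 7 genes, in 7 windows since TAP1 has 2. HLA-E had no window and was not searched. The following 30-base stretches, read 5′ to 3′ on the gene's strand, hold the κB core of HLA-B, the letters at its place in HLA-C, which miss that core by 1 base, and the interferon response (ISRE) cores of HLA-B, HLA-C and TAP2. HLA-B and HLA-C are shown as the pair with the highest correlation of levels. Capitals mark the κB core, or its place in HLA-C, and the ISRE cores. They are reference letters and not those of NALM-6.
HLA-B, chr6:31357326-31357355, minus strand: GGGATTCCCcactcccctgagTTTCACTTC
HLA-C, chr6:31272235-31272264, minus strand: GGGATTCTCcactcccctgagTTTCACTTC
TAP2, chr6:32838783-32838812, minus strand: cttggctgggGAAGCGAAAgcgaaagctgc

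The HLA-B and HLA-C stretches begin 176 and 172 bases upstream of the start site and share 29 of 30 bases. The base that differs lies in the κB core, where HLA-C carries C8T, counted from 1 at the first base of the HLA-B core. Both strands of every window of this length were searched, 35116 in all. The κB core GGGATTCCC stood in 0.384% of them and in 1 of the 7 member windows, that of HLA-B. The ISRE core GAANNGAAA stood in 7.66% of all windows and in 3 of the 7, those of HLA-B, HLA-C and TAP2. CCAAT stood in 34.6% and in 4 of the 7, and TGACGT in 7.98% and in none. A match is a description of the letters and no proof of a bound site. Only these exact letters were searched, so a window without a match can still hold near forms. TAPBP, for instance, misses the κB core by 1 base, and B2M and TAPBP hold GAAACTGAAA and GAAAGTGAAA. A missing match is therefore no proof that a site is missing.

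Libraries held 312852 to 1153668 UMIs (median 603822). Markers of B-cell precursors summed to 4400 to 5041 UMI counts scaled to the library total (counts per 1e6, CPM), with all 10 of 10 detected, whereas T cell markers summed to 0 to 6.39, with CD3D, CD3E and CD7 at 0, and myeloid markers to 0 to 25.6 CPM, with ITGAM at 0. Erythroid markers summed to 0 to 5.29 CPM, with HBA1 and HBA2 at 0, and stromal markers to 0 to 11.5 CPM, with COL3A1 and DCN at 0. XIAP itself was counted at 9.72 ± 3.27 CPM (SD, n = 31), 2 to 14 UMIs per library. Its log2 difference was −0.26 ± 0.40 (SE) with strong and −0.17 ± 0.37 with moderate KD at days 10 and 13. The limma-voom adjusted p were 0.975 and 0.995, so that a lower XIAP count was not detected. The 95% intervals were −1.06 to 0.54 with strong and −0.91 to 0.57 with moderate KD. A fall beyond their lower ends lies outside them, while a smaller fall could be missed at this depth. The paper shows the KD in XIAP protein by Western blot, where the fall with either construct is larger than these lower ends. Protein was not measured here, and the gap between RNA and protein was not tested. In bulk RNA, fewer cells with a transcript and less of it per cell cannot be told apart.

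NALM-6 expressed every member, and B2M, HLA-B, HLA-C and HLA-E stood in the same order of level in every library. The scale is CPM of UMIs, in which each molecule is counted once at its 3′ end, so that no division by length was made. B2M, the light chain that every class I molecule needs, was the most abundant with 1813 ± 55.9 CPM (SD, n = 31) and ranked 40th by mean of all genes in the table. HLA-B, a classical heavy chain, followed with 655 ± 41.7 CPM (rank 175), and HLA-C, the classical heavy chain also read by NK cell receptors, with 336.5 ± 27.6 CPM (rank 428). These ranges did not overlap: B2M lay between 1698 and 1932 CPM, HLA-B between 530.6 and 746.1, HLA-C between 265.3 and 399.9, and HLA-E, the non-classical ligand of NKG2A, between 99.1 and 166.6 (mean 135.4 ± 17.3).

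Below the heavy chains the steps were smaller. TAP1 had 118.2 ± 16.7 CPM (82.8 to 153.8), TAPBP 64.7 ± 10.8 CPM (45.4 to 90.4) and TAP2 58.7 ± 10.2 CPM (42.3 to 80.0). HLA-E lay above TAP1 in 25 of 31 libraries and was equal in 1, and TAPBP lay above TAP2 in 20 and was equal in 1, so that the ranges of both pairs overlap and their order changed between libraries, less often for HLA-E and TAP1. TAP1 lay above TAPBP in 31 of 31 libraries, although their ranges over libraries overlap.

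**Figure D1:**
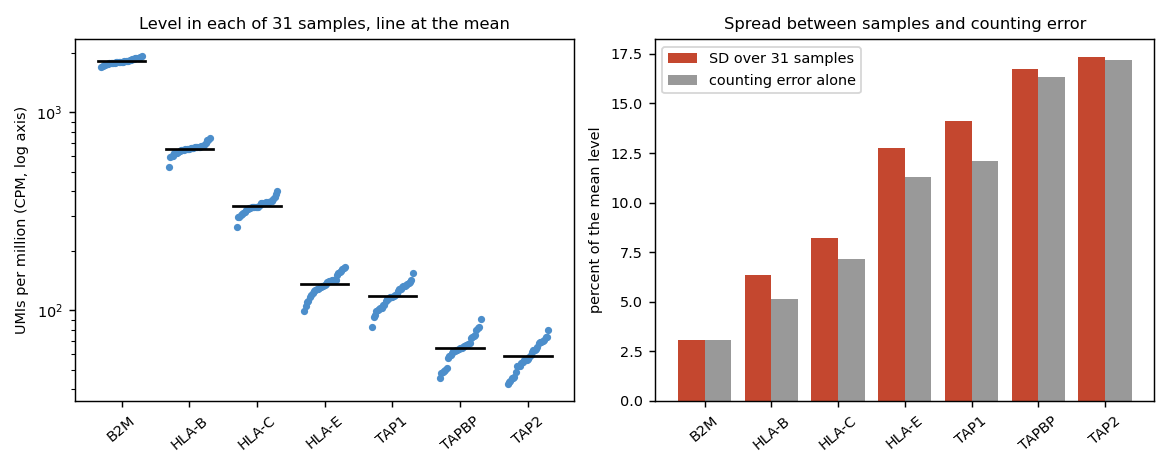
Left, the level of each gene in each of the 31 samples (points, CPM on a log axis, line at the mean). Right, the SD over the 31 samples and the spread that UMI counting alone would give, both as percent of the mean (bars); B2M has 3.08 against 3.09 percent and HLA-B 6.37 against 5.14 percent.

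How steady these levels were is best read against counting error. B2M was counted 563 to 2084 times per library, and its coefficient of variation over all 31 samples, 3.08%, equalled the 3.09% that counting alone gives. TAP2, with 16 to 81 UMIs per library, varied by 17.4% against 17.2%, and TAPBP, with 16 to 78 UMIs, by 16.8% against 16.4%. For these 3 genes, samples of 4 constructs and 3 days differed little more than repeated draws from 1 pool would. In proportion to its counting error HLA-B stood furthest above it, with 6.37% against 5.14%, whereas in percentage points TAP1 did. HLA-C had 8.19% against 7.17%, HLA-E 12.8% against 11.3% and TAP1 14.1% against 12.1%. UMI intervals of this kind cover counting error only.

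The proportions between chains varied to different degrees. HLA-B was counted 1.95 ± 0.12 times as often as HLA-C (SD, n = 31), with 1.63 in the lowest and 2.14 in the highest library. B2M was counted 1.61 ± 0.12 times as often as the 3 heavy chains together, which summed to 1127 ± 69.0 CPM, with 1.40 in the lowest and 2.06 in the highest library. TAP1 was counted 2.08 ± 0.52 times as often as TAP2, its partner in the heterodimer, with a range of 1.39 to 3.38. The comparison between genes rests on how well each 3′ end was captured.

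The reference annotation shows how far reads of the heavy chains can be kept apart. In GENCODE 29 (GRCh38, not necessarily the authors' annotation), the spans of HLA-C (chr6:31268749-31272130) and HLA-B (chr6:31269491-31357188) overlap on the same strand, with 33 exonic bases in common. HLA-E lies at chr6:30489467-30494205, TAP2 at chr6:32821833-32838780, TAP1 at chr6:32845209-32853978, TAPBP at chr6:33299694-33314387, and B2M outside the MHC at chr15:44711487-44718877. The heavy chains resemble each other in sequence and have transcribed pseudogenes, of which HLA-J was counted at 58.0 ± 11.9 CPM (SD, n = 31), HLA-H at 20.4 ± 5.93 CPM, and HLA-L and HLA-K at means of 8.55 and 1.81 CPM. How the authors' counting split such reads is not given in the sources used here, so the single heavy-chain counts carry that uncertainty.

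**Figure D2:**
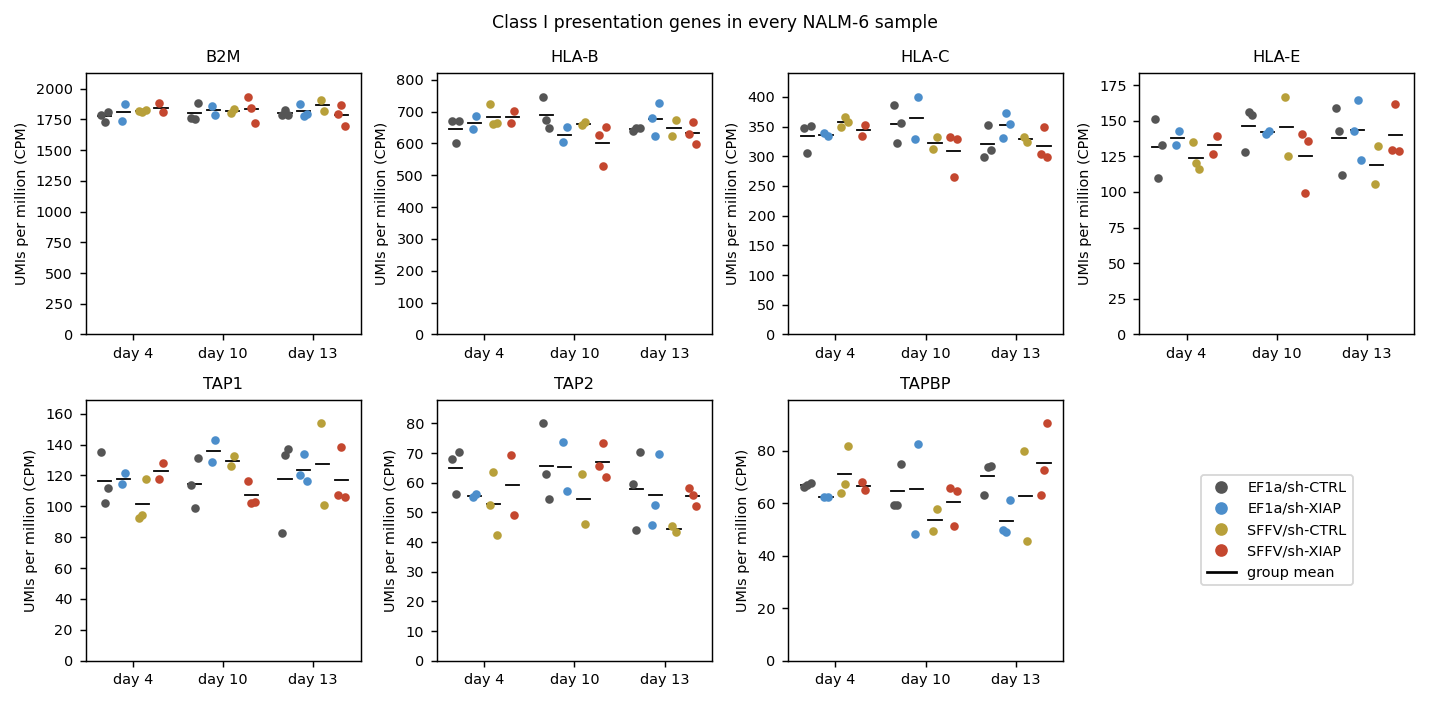
CPM of each gene in every sample (points, y axis from 0), grouped by day and coloured by construct, with a line at each group mean. Samples lie closest together for B2M (1698 to 1932 CPM) and spread more, relative to their level, in the other panels; the SFFV/sh-XIAP day 10 sample at 530.6 CPM is the lowest of the HLA-B panel.

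With strong XIAP KD no presentation gene passed the test. At days 10 and 13, 0 of 7 passed an adjusted p of 0.25 (limma-voom, Benjamini-Hochberg over 17683 genes), beside 0.0792% of all genes tested, and 1 of 7 had an unadjusted p under 0.05, beside 5.58% of all genes. The median log2 difference of the 7 was −0.05, beside −0.02 over all genes, with 3 higher and 4 lower. edgeR and DESeq2 also called 0 of 7, with 0 and 0 members at an unadjusted p under 0.05.

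The member with the small p was B2M. SFFV/sh-XIAP libraries had 1698, 1819 and 1932 CPM of B2M (lowest, median and highest of 6), and SFFV/sh-CTRL libraries 1799, 1837, 1908 and 1820. The groups overlap, with the SFFV/sh-XIAP libraries both the lowest and the highest. The log2 difference was −0.06 ± 0.03 (SE; adjusted p = 0.853), and its 95% interval of −0.12 to −0.004 spans 0.917 to 0.997 on the fold scale. The size of so small a difference rests on the scaling. With each of the 21 libraries in turn as the TMM reference, B2M ranged from −0.07 to −0.03 and had an unadjusted limma-voom p under 0.05 with 6 of them, while the median over all genes moved between −0.02 and 0.01. Without SFFV/sh-XIAP day 10 replicate 3 the B2M difference was −0.03.

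HLA-B was 530.6, 628.4 and 667.1 CPM in the SFFV/sh-XIAP libraries (lowest, median, highest, n = 6) and 657.4, 666.9, 623.8 and 674.6 CPM in the SFFV/sh-CTRL libraries. The groups overlap, although 2 of the 6 SFFV/sh-XIAP libraries lay below every control. The log2 difference was −0.08 ± 0.05 (adjusted p = 0.935), and −0.04 without SFFV/sh-XIAP day 13 replicate 1, which was also the TMM reference. HLA-C had 265.3, 316.8 and 349.4 CPM against 312.9, 332.5, 333.3 and 323.9 CPM, a log2 difference of −0.05 ± 0.08 (adjusted p = 0.979), and HLA-E had 99.1, 132.8 and 161.4 CPM against 166.6, 124.9, 105.4 and 132.0 CPM, a log2 difference of 0.01 ± 0.13 (adjusted p = 0.995). The sum of the 3 heavy chains differed by −0.05 ± 0.04 (adjusted p = 0.940).

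The peptide transporter and tapasin had wider intervals, since fewer UMIs were counted. TAP1 had 102.3, 106.7 and 138.5 CPM (lowest, median, highest) with SFFV/sh-XIAP and 126.1, 132.6, 153.8 and 101.1 CPM with SFFV/sh-CTRL, a log2 difference of −0.19 ± 0.13 (adjusted p = 0.935). TAP2 had 52.3, 60.0 and 73.5 CPM against 63.0, 46.1, 45.6 and 43.3 CPM, a log2 difference of 0.27 ± 0.17 (adjusted p = 0.925). TAP2 thus pointed upward where TAP1, its partner, pointed downward, and both sets of libraries overlap. TAPBP had 51.1, 65.0 and 90.4 CPM against 49.5, 57.7, 79.8 and 45.4 CPM, a log2 difference of 0.25 ± 0.17 (adjusted p = 0.935). With 1 library left out, TAP1 ranged from −0.31 (without SFFV/sh-CTRL day 13 replicate 2) to −0.11 (without SFFV/sh-CTRL day 13 replicate 1). TAP2 fell to 0.18 without SFFV/sh-CTRL day 10 replicate 2, and TAPBP to 0.10 without SFFV/sh-CTRL day 13 replicate 2. Over the 7 members the intervals reach from −0.46 for TAP1 to 0.62 for TAP2, so that for every member a change of 2-fold or more in either direction lies outside its 95% interval.

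Single values were also compared by exact permutation over samples, two-sided, within day or within construct, for 7 members in 10 comparisons. Of these 70 tests, 3 had a p of at most 0.05. The tests of day 4 are among the 70 but could not reach it. The KD comparisons of that day had 10 reassignments each. The promoter comparison had 20, each with a mirror image of equal size. Of the tests that can reach 0.05, chance alone brings about 1 in 20 there. With strong KD at days 10 and 13, TAP2 had an exact permutation p of 0.02 over 100 reassignments (log2 difference 0.30 from the group means). The other 2 stand with their comparisons. No adjustment was made, since the members were chosen with results of these data known.

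With moderate KD the members did not pass either. At days 10 and 13, 0 of 7 were called, beside 0.017% of all genes, and 0 of 7 had an unadjusted p under 0.05, beside 4.62%; edgeR and DESeq2 called 0 as well, with no member at an unadjusted p under 0.05. The median log2 difference was 0.01, beside 0.01 over all genes. The smallest p belonged to TAPBP, which had 48.4, 82.5, 49.7, 48.9 and 61.1 CPM in the 5 EF1a/sh-XIAP libraries and 59.1, 68.3 and 74.8 CPM (lowest, median, highest) in the 6 EF1a/sh-CTRL libraries. A single EF1a/sh-XIAP library lay above all controls while 3 lay below them. The log2 difference was −0.26 ± 0.16 (adjusted p = 0.992). TAP1 had 129.0, 142.8, 120.2, 134.0 and 116.4 CPM against 82.8, 122.5 and 137.4 CPM, a log2 difference of 0.14 ± 0.13 (adjusted p = 0.992), which was 0.02 without EF1a/sh-CTRL day 13 replicate 1. B2M, HLA-B and HLA-E differed by 0.01 or less in either direction, with intervals of −0.05 to 0.06, −0.09 to 0.11 and −0.24 to 0.22.

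Whether strong and moderate KD differ was tested by the difference of their effects, which share no samples. Again 0 of 7 were called, beside 0.00566% of all genes, and 1 of 7 had an unadjusted p under 0.05, beside 5.06% (edgeR 0 called and 1 under 0.05, DESeq2 0 and 0). It was TAPBP, with an effect larger by 0.51 ± 0.24 on the log2 scale (interval 0.03 to 0.98, adjusted p = 0.964), since it pointed up with strong and down with moderate KD. TAP1 went the other way, by −0.33 ± 0.18 (adjusted p = 0.964), and by −0.21 without EF1a/sh-CTRL day 13 replicate 1.

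**Figure D3:**
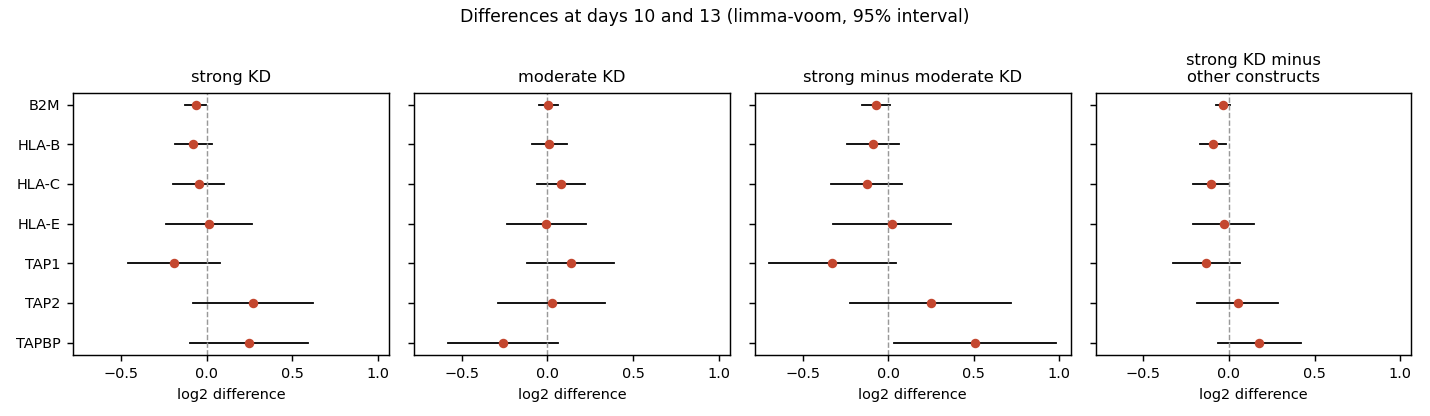
Log2 differences of the 7 genes at days 10 and 13 (points) with 95% intervals (lines), from limma-voom. Intervals widen from B2M to TAPBP; nearly all cross 0, the exceptions being B2M with strong KD, TAPBP for strong minus moderate KD, and HLA-B and HLA-C for strong KD against the other constructs.

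SFFV/sh-XIAP was also set against all 3 other constructs together, and no member passed the test. This comparison shares its SFFV/sh-XIAP and SFFV/sh-CTRL libraries with the strong KD comparison above. Here 0 of 7 were called, beside 0.843% of all genes, and 2 of 7 had an unadjusted p under 0.05, beside 6.46% (edgeR 0 and 1, DESeq2 0 and 1). HLA-B had a log2 difference of −0.09 ± 0.04 (adjusted p = 0.594; exact permutation p = 0.0390 over 19800 reassignments) and HLA-C of −0.11 ± 0.05 (adjusted p = 0.761; exact permutation p = 0.0608). The summed heavy chains differed by −0.09 ± 0.03, with an unadjusted limma-voom p of 0.00261 and an adjusted p of 0.267, just outside the threshold. On the fold scale the interval of HLA-B is 0.889 to 0.988. With each library in turn as the TMM reference, HLA-B had an unadjusted p under 0.05 with 17 of 21 and HLA-C with 3 of 21. With 1 library left out, HLA-B ranged from −0.11 to −0.07 and HLA-C from −0.14 to −0.07.

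SFFV/sh-XIAP day 10 replicate 2, the smallest library with 312852 UMIs, had the lowest HLA-B, HLA-C and HLA-E of all 31 samples, at 530.6, 265.3 and 99.1 CPM. Its B2M, at 1844 CPM, lay in the middle of the range, and its ratio of B2M to the 3 heavy chains, 2.06, was the highest. With log2 total UMIs as a covariate, HLA-B passed the threshold in this comparison (log2 difference −0.17, adjusted p = 0.0571), so that the call depends on how depth is treated. SFFV/sh-XIAP libraries of these days were deeper, with a median of 708866.5 UMIs against 464457 to 578418.5 in the other constructs. Over all genes, too, SFFV/sh-XIAP day 10 replicate 2 differed from its replicates. Chi-square per gene, which rises where replicates differ by more than counting, was 1.71 against replicate 1 and 2.18 against replicate 3. Between replicates 1 and 3 it was 1.17, and over all 26 replicate pairs 1.07 to 2.43.

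The promoter of the vector was compared in the controls, SFFV/sh-CTRL against EF1a/sh-CTRL. At days 10 and 13, 0 of 7 were called, beside 0.00566% of all genes, and 0 of 7 had an unadjusted p under 0.05, beside 5.16%; edgeR and DESeq2 gave 0 calls and no unadjusted p under 0.05. TAP2 came closest, with 63.0, 46.1, 45.6 and 43.3 CPM in SFFV/sh-CTRL and 43.9, 61.3 and 80.0 CPM (lowest, median, highest) in EF1a/sh-CTRL, a log2 difference of −0.32 ± 0.18 (adjusted p = 0.922). The same SFFV/sh-CTRL libraries are the controls of strong KD, in which TAP2 pointed upward, and the SFFV/sh-XIAP mean of 61.2 ± 7.58 CPM (n = 6) is close to the EF1a/sh-CTRL mean of 61.9 ± 12.6 CPM (n = 6).

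At day 4 no member was called either. With strong KD 0 of 7 were called, beside 0.0109% of all 18336 genes tested, and 0 of 7 had an unadjusted p under 0.05, beside 4.72%. With moderate KD 0 of 7 were called, beside 0.0491%, and 0 under 0.05, beside 4.5%. Between the control promoters 0 of 7 were called, beside 0.0164%, and 0 under 0.05, beside 4.33%. By edgeR and DESeq2, too, 0 of 7 were called and 0 had an unadjusted p under 0.05 in all 3 of these comparisons. TAP1 had 117.6 and 128.4 CPM with SFFV/sh-XIAP and 92.7, 94.6 and 117.8 CPM with SFFV/sh-CTRL, a log2 difference of 0.29 ± 0.15 (adjusted p = 0.978), opposite in direction to days 10 and 13. TAP2 had 52.5, 63.6 and 42.3 CPM with SFFV/sh-CTRL and 68.1, 56.3 and 70.2 CPM with EF1a/sh-CTRL, a log2 difference of −0.37 ± 0.18 (adjusted p = 0.996), in the same direction as at the later days. With 3 samples against 2, or 3 against 3 two-sided, an exact permutation test cannot go below 0.1.

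Time in culture did not move the genes past the threshold. From day 4 to day 10, 0 of 7 were called, beside 0.289% of 17676 genes, and 0 had an unadjusted p under 0.05, beside 6.61%. From day 4 to day 13, 0 of 7 were called, beside 0.43%, and 0 under 0.05, beside 6.91%. From day 10 to day 13, 0 of 7 were called, beside 0%, and 0 under 0.05, beside 5.38%. edgeR and DESeq2 called 0 of 7 in these 3 comparisons and gave no unadjusted p under 0.05. The day changes also did not differ between constructs at the threshold, with 0 of 7 beside 0.215% of all genes, and 0 under 0.05, beside 6.87%; edgeR called 0 with 0 under 0.05.

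The day means were close for each chain. HLA-B had 668.6 ± 33.2 CPM at day 4 (n = 10), 645.7 ± 54.6 at day 10 (n = 10) and 651.0 ± 35.4 at day 13 (n = 11). The step to day 10 was −0.07 ± 0.03 on the log2 scale (limma-voom adjusted p = 0.753). B2M had 1809 ± 49.5, 1818 ± 65.0 and 1813 ± 57.6 CPM, and its step to day 10 was −0.04 ± 0.02 in the fit (adjusted p = 0.758; −0.01 without SFFV/sh-XIAP day 10 replicate 3), opposite in sign to its CPM means. TAP2 had 58.3 ± 9.36, 63.8 ± 10.1 and 54.3 ± 9.66 CPM, with a step from day 10 to day 13 of −0.20 ± 0.12 in the fit (adjusted p = 0.943) and an exact permutation p of 0.0300 over 24000 reassignments.

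Over the 21 pairs of members, Pearson's r of log2 CPM across the 31 samples ranged from −0.27 for HLA-E and B2M to 0.60 for HLA-B and HLA-C, with a median of 0.01. The values share the library total, and r is given as a description. Since B2M, TAP2 and TAPBP varied little beyond counting error, an r near 0 does not show that such genes vary independently. The HLA-B and HLA-C relation leaned on few libraries: r was 0.44 without SFFV/sh-XIAP day 10 replicate 2, and 0.32 when EF1a/sh-CTRL day 10 replicate 1, the highest in HLA-B, was also left out. B2M, which pairs with both chains, had r = −0.08 with HLA-B and −0.05 with HLA-C. Among 4108 genes with at least 50 CPM on average, those most like the mean of the 7 standardized members included EIF3E (r = 0.67), ZNF451 (0.66), PPP1CC (0.64) and KIAA2013 (0.63). They were picked as the highest of 4108 values, and how high such values reach by chance was not tested. With a median r of 0.01 between members, their mean need not be a shared pattern.

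**Figure D4:**
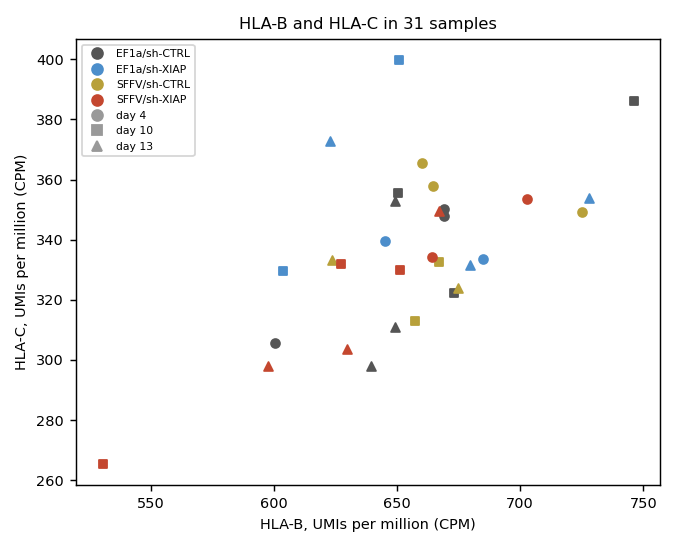
HLA-C against HLA-B in CPM, 1 point for each of the 31 samples, coloured by construct and shaped by day. The lowest point is SFFV/sh-XIAP day 10 replicate 2 (530.6 and 265.3 CPM) and the one farthest right EF1a/sh-CTRL day 10 replicate 1 (746.1 and 386.0 CPM); most others form a cloud with no clear line.

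The machinery around the members was described by 6 lists of 57 genes. Folding and loading in the ER was the list with called genes. With SFFV/sh-XIAP against the other constructs at days 10 and 13, 2 of its 10 genes rose and none fell, beside 0.843% of all genes called in either direction. The other 8 did not pass, all 10 had a positive log2 difference, with a median of 0.05 beside −0.01 over all genes. They were CALR, calreticulin, the lectin chaperone that holds the glycosylated heavy chain in the peptide-loading complex, and HSPA5, BiP, the ER chaperone of the unfolded protein response, which is not specific to class I.

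CALR had 572.2, 634.7 and 657.0 CPM in the SFFV/sh-XIAP libraries (lowest, median, highest, n = 6) and 485.6, 530.6 and 599.6 CPM in the 15 libraries of the other constructs. All but 1 of the SFFV/sh-XIAP libraries lay above every other library of days 10 and 13, that exception being day 10 replicate 2. The log2 difference was 0.21 ± 0.04 (limma-voom adjusted p = 0.00150). HSPA5 had 373.7, 397.7 and 415.5 CPM against 284.7, 328.5 and 390.4 CPM, with 1 EF1a/sh-XIAP library inside the SFFV/sh-XIAP range, a log2 difference of 0.24 ± 0.05 (adjusted p = 0.00891). With log2 total UMIs as a covariate both calls were kept (CALR 0.17, limma-voom adjusted p = 0.0951, and HSPA5 0.26, adjusted p = 0.0365). Counts thinned to the smallest library lost both (CALR 0.17, adjusted p = 0.350, and HSPA5 0.15, adjusted p = 0.688), and day 10 alone lost that of HSPA5 (adjusted p = 0.411). Leaving out any 1 library kept both (adjusted p at most 0.0612 and 0.114). The deeper SFFV/sh-XIAP libraries named above enter here too.

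Against SFFV/sh-CTRL alone, which contributes to the comparison above, CALR differed by 0.12 ± 0.05 (adjusted p = 0.827) and HSPA5 by 0.22 ± 0.07 (adjusted p = 0.584). Between the controls of days 10 and 13, CALR was higher in SFFV/sh-CTRL than in EF1a/sh-CTRL by 0.12 ± 0.06 (limma-voom unadjusted p = 0.0457, adjusted p = 0.922). The comparison with the other constructs includes those with EF1a, so promoter as well as KD enters it. With moderate KD the values were −0.04 ± 0.05 for CALR and 0.12 ± 0.07 for HSPA5 (adjusted p = 0.992 for each). At day 4, SFFV/sh-XIAP libraries had 633.4 and 554.5 CPM of CALR, inside the range of the other constructs (549.7 to 640.8). Their HSPA5, at 376.8 and 345.4 CPM, lay inside and below that range (350.8 to 412.8), so neither gene stood out above the others at that day. CANX, calnexin, which folds the heavy chain before calreticulin does, differed by 0.04 ± 0.05 from the other constructs (adjusted p = 0.937).

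**Figure D5:**
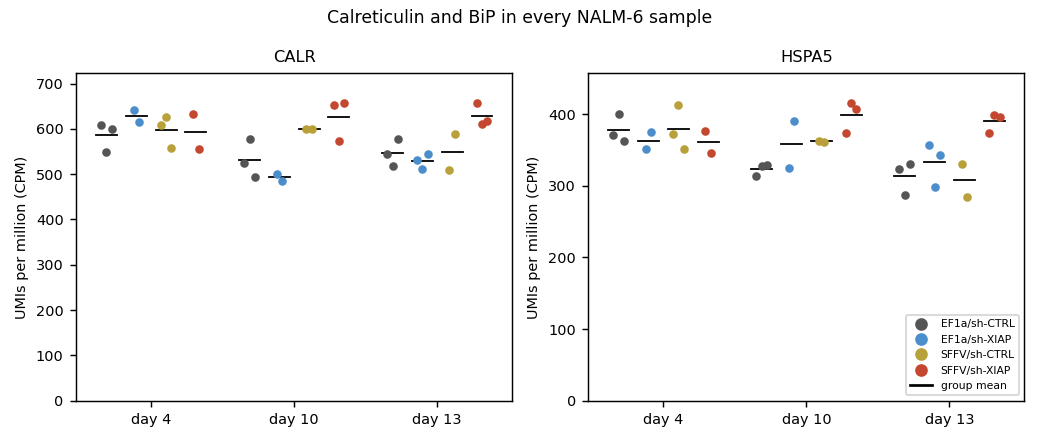
CPM of CALR and HSPA5 in every sample (points, y axis from 0), by day and construct, with a line at each group mean. At days 10 and 13 the SFFV/sh-XIAP samples (572.2 to 657.0 CPM of CALR, 373.7 to 415.5 CPM of HSPA5) lie mostly above the others, while at day 4 (CALR 554.5 and 633.4 CPM) they do not.

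In the other 5 lists no gene was called in any of the 12 comparisons by limma-voom. Peptide supply, the immunoproteasome subunits, proteasome activators and trimming peptidases, had 10 of 10 genes tested, and its 2 most abundant, the activator subunits PSME1 (305.2 ± 22.2 CPM) and PSME2 (303.9 ± 26.1 CPM), differed by 0.04 ± 0.08 and 0.13 ± 0.07 with strong KD. PSMB8, the immunoproteasome subunit beside TAP1 and TAP2 in the genome, had a mean of 296.3 CPM and differed by −0.06 ± 0.07. PSMB9, which shares a divergent promoter with TAP1, had 79.7 ± 17.2 CPM and differed by −0.22 ± 0.19 with strong and by 0.39 ± 0.18 with moderate KD. Pearson's r of PSMB9 and TAP1 over the 31 samples, which share the library totals, was −0.05.

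The 3 standard catalytic subunits of the proteasome were led by PSMB6 (319.5 ± 24.6 CPM) and PSMB7 (179.5 ± 16.0 CPM), which differed by 0.16 ± 0.08 and 0.15 ± 0.10 with strong KD. Of 11 other class I-like chains, 10 were in the table and 8 were tested. HLA-F (33.7 ± 7.49 CPM) and MR1, which presents metabolites (25.5 ± 6.06 CPM), were the most abundant, and differed by −0.02 ± 0.23 and 0.15 ± 0.28 with strong KD.

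Transcription factors of class I promoters had 13 of 13 tested. RELA, the NF-κB subunit p65, had 98.2 ± 13.2 CPM and RFX5, part of the complex that NLRC5 joins, 87.2 ± 11.9 CPM, and they differed by −0.10 ± 0.13 and 0.03 ± 0.15 with strong KD. IRF1, the interferon regulatory factor that binds the ISRE, is named here after its values were seen. It had 32.0, 40.9 and 44.2 CPM (lowest, median, highest) in the 6 SFFV/sh-XIAP libraries of days 10 and 13 and 45.6 to 59.8 CPM in the 4 SFFV/sh-CTRL libraries. The ranges do not overlap, but the log2 difference of −0.37 ± 0.18 did not pass (limma-voom adjusted p = 0.874), and the EF1a/sh-CTRL libraries, at 34.4 to 54.9 CPM, reach into the range of SFFV/sh-XIAP.

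Interferon signalling had 10 of 10 tested. JAK1 (63.3 ± 11.9 CPM), a kinase that passes on the signal of the interferon receptors, differed by 0.004 ± 0.18 with strong KD and by 0.09 ± 0.16 with moderate KD. The median over the list was −0.02 with strong KD, beside −0.02 over all genes, and −0.04 with moderate KD, beside 0.01.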

How the data were processed

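NALM-6 samples were sequenced by prime-seq, a bulk-adjusted SCRB-seq protocol. The deposited table holds raw UMI counts of 30667 Ensembl identifiers in 31 samples, with no normalization by the authors. The submitters' processing notes list STAR 2.6.0a and the builds hg38 and mm10. The annotation and the counting tool were not given in the sources used here. Symbols were matched for 30548 identifiers. The study left out outlier samples that it does not name. Whether they are among the 31 samples used here is not known, and none of the 31 was left out here. Totals were 312852 to 1153668 UMIs.

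A gene was tested where at least 1/3 of the samples of a fit exceeded 1 CPM. The test was limma-voom (limma 3.58.1, TMM from edgeR 4.0.16, R 4.3.3), called at the study's adjusted p of at most 0.25 (Benjamini-Hochberg). Days 10 and 13 (21 samples) were fitted with construct and day, day 4 (10 samples) with construct, and day comparisons with 1 mean per group. Log2 CPM used a prior count of 2. Alternatives included the edgeR quasi-likelihood test and DESeq2 1.42.0. When a sample was left out, the TMM reference of the full fit was kept, unless it was that sample. Fits were tested on simulated data. Members, lists and tests were chosen with earlier results of these data known. Named genes were the members, XIAP, called list genes or the 2 most abundant of a list, and the 5 genes most like the members, of which some are not reported here. IRF1, PSMB8 and PSMB9 were named, and 3 alternatives added (leaving out the smallest sh-XIAP libraries, a block within construct, other TMM references), after the data were seen.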

Additional observations from a re-analysis of the deposited data

Results flagged for a closer look

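Of 28 groups tested, each 1 of the 7 genes in 1 construct at days 10 and 13, 2 held a sample far from the others, where chance gives about 1 in 20 groups. HLA-B in EF1a/sh-CTRL day 10 replicate 1 was 746.1 CPM, with the other 5 libraries between 639.3 and 673.0 CPM. TAP2 in SFFV/sh-CTRL day 10 replicate 1 was 63.0 CPM, with the other 3 libraries between 43.3 and 46.1 CPM; it is 1 of the 4 controls of the strong KD comparison. No difference between constructs or days in the effect on a member passed the adjusted p of 0.25.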

How the results depend on the processing

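The count of members called stayed at 0 in 168 of 170 results under other settings and in 259 of 259 with 1 sample left out (0 to 0 called). It moved to 1 for SFFV/sh-XIAP against the other constructs with log2 total UMIs as a covariate (HLA-B), and to 2 for day 10 against day 4 with no filter on low counts (HLA-B −0.07, adjusted p = 0.245, and B2M −0.05, adjusted p = 0.247, limma-voom), where 8258 genes were called in all. With the replicate number as a replicate block 0 members were called in every comparison. Residuals correlated at −0.00054 on average over 149 pairs with a shared number and at 0.000295 over 290 pairs without. Over 28 pairs of the same construct and number at different days the mean was −0.00214. All genes tested weighed equally, also those with few UMIs, so that counting error can hide likeness. These values therefore cannot show whether the numbers mark like samples.

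Of single differences, 300 of 316 under other settings and 446 of 449 with 1 sample left out kept direction and call. With strong KD at days 10 and 13, HLA-C was 0.000233 with no filter. HLA-E was −0.0111 by DESeq2, −0.00505 by limma-trend, −0.00597 with DESeq2 size factors, −0.180 with thinned counts, −0.124 at day 10 alone and −0.0215 against both sh-CTRL constructs, and −0.0571 to 0.123 with 1 sample left out. HLA-C was −0.0767 to −0.000962 with 1 sample left out. TAP1 was 0.0267 with all 31 samples. B2M from day 4 to day 10 was 0.0073 by DESeq2 and 0.0259 with thinned counts. The causes were not tested.

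The TMM reference, examined after the data were seen, moved all genes together by up to about the standard error of B2M; 0 members were called with any reference in the 11 comparisons with a log2 difference. Genes called in all ranged from 0 (DESeq2) to 113 (both sh-CTRL constructs) with strong KD and from 33 (DESeq2) to 204 (edgeR) against the other constructs. With 1 sample left out they ranged from 1 (without SFFV/sh-CTRL day 10 replicate 1) to 51 (without SFFV/sh-XIAP day 10 replicate 2), beside 14, with strong KD, from 50 (without SFFV/sh-XIAP day 10 replicate 3) to 218 (without SFFV/sh-XIAP day 10 replicate 2), beside 149, against the other constructs, and from 0 to 30 (without EF1a/sh-XIAP day 13 replicate 3), beside 1, for strong minus moderate KD. The shares printed beside the members move with them. Depth limits TAP2 and TAPBP, with as few as 16 UMIs in a library.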
